A study of Homo sapiens with 12 samples.

Results

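The genes described here are 39 genes of the lysosome and of autophagy, named by symbol in a list and matched to the Ensembl identifiers of the count tables. All 39 of them were matched among 40649 genes, and all 39 passed the filter on low counts that left 19268 genes for testing. The list held GLB1, which encodes the lysosomal beta-galactosidase whose activity is stained as senescence-associated beta-galactosidase, with 8 other glycosidases and sulfatases. It also held 5 lysosomal membrane proteins, 4 cathepsins with the protective protein CTSA, 4 proteins of lipid handling, 6 subunits or assembly factors of the proton pump (V-ATPase), 2 transcription factors and 8 genes of autophagy.

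Lysosomes are acidic organelles in which proteins, glycans, lipids and nucleic acids are broken down by hydrolases that work at the low pH kept up by the V-ATPase. Autophagy delivers cytoplasmic cargo to them in double-membraned autophagosomes, and a large part of both systems is transcribed under the control of the TFEB and TFE3 transcription factors, which bind short CLEAR elements in promoters when they are not held in the cytoplasm by phosphorylation through mTORC1. In proximal tubule cells, which take up large amounts of filtered protein, lysosomes carry a heavy load, and a growing lysosomal mass is a known feature of senescent cells.

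Gene expression was profiled by RNA-seq of polyadenylated RNA in HK-2, an established human cell line derived from proximal tubule epithelium. The first group carried a knockdown of Yap1, as the labels spell it, a transcriptional coactivator of the Hippo pathway, and was stimulated with 150 µM hydrogen peroxide (H2O2), an oxidant, for 48 h (Yap1 knockdown + H2O2). The second group had the genotype ShNC, taken here as the control hairpin, with the same H2O2 treatment (ShNC + H2O2), and the third had the genotype ShNC and no oxidant (ShNC). Each group had 4 libraries. Knockdown cells without H2O2 were not analysed here. The labels name no hairpin sequence or clone and describe the RNA as extracted from kidney tissue although they name the cell line. Nor do they tell whether replicates were grown separately, so the spread that the p-values are measured against may be technical.

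Libraries held 30789997 to 46582873 counts, so that the floor of 3 counts lay between 0.0644 and 0.0974 CPM, the count of a gene scaled to a fixed library total. Mitochondrially encoded genes took 11.3% of counts in Yap1 knockdown + H2O2 replicate 3 and 13.9% in ShNC replicate 4, against 4.54% to 5.64% in the other 10 libraries. Counts are given below without both libraries where they rest on them. YAP1 had 131, 135, 111 and 136 CPM in the libraries labelled Yap1 knockdown + H2O2, 155, 151, 156 and 164 CPM in ShNC + H2O2 and 136, 130.3, 140.5 and 124 CPM in ShNC. It was lower in the knockdown libraries than in ShNC + H2O2 (log2 fold change -0.29 ± 0.07, edgeR adjusted p = 0.00346) but not than in ShNC (-0.05 ± 0.07, adjusted p = 0.636). The knockdown libraries named below are therefore those so labelled. Of 13 markers of proximal tubule cells and HK-2, 4 were below 1 CPM, among them LRP2 and AQP1, and the list summed to 1399 to 1471 CPM in Yap1 knockdown + H2O2, 1455 to 1549 CPM in ShNC + H2O2 and 1392 to 1645 CPM in ShNC. The 6 fibroblast markers summed to 143 to 172 CPM in Yap1 knockdown + H2O2, 236 to 255 CPM in ShNC + H2O2 and 110.0 to 113 CPM in ShNC, mostly as LUM, with COL1A2 listed at 0. The 6 leukocyte and macrophage markers summed to 28.2 to 37.2 CPM in Yap1 knockdown + H2O2, 14.5 to 18.4 CPM in ShNC + H2O2 and 22.1 to 24.5 CPM in ShNC, mostly as CSF1R, with PTPRC and TYROBP near 0, and both sums moved with the groups. Their part in the results on lysosomal genes was not tested, and in bulk RNA fewer cells of a type and less RNA per cell cannot be told apart.

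With H2O2, lysosomal and autophagy genes moved in both directions. In ShNC + H2O2 against ShNC, 12 of the 39 genes rose and 11 fell (30.8% and 28.2%), where 23.9% of all tested genes rose and 22.6% fell; 23 were called (59.0%), against 46.6% of all tested genes. The largest rises were those of TFEB, GPNMB, NPC2, ULK1 and SMPD1, and the largest falls those of CTSL, FUCA1, CTSZ, GALNS and NPC1. The median log2 fold change of the 39 genes was -0.06, against 0.00399 over all genes. The groups did not overlap for 23 of the 39 (59.0%), against 48.0% of all tested genes. At a fold of at least 1.5, 12 of the 39 were called (30.8%), against 25.1% of all tested genes. With only genes of at least 1 CPM in 4 libraries tested, 24 of 38 were called (63.2%), against 53.9% of all genes so filtered. A gene is called throughout where edgeR's quasi-likelihood test gave an adjusted p (Benjamini-Hochberg, over all tested genes of the comparison) below 0.05, log2 fold changes are given ± their standard error, and mean levels ± the SD of the 4 libraries of a group. Below, a change with H2O2 is that of ShNC + H2O2 against ShNC, and the knockdown comparison is that of Yap1 knockdown + H2O2 against ShNC + H2O2.

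In Yap1 knockdown + H2O2 against ShNC + H2O2, 19 of the 39 genes were higher and 7 lower (48.7% and 17.9%), where 22.0% of all tested genes were higher and 21.0% lower; 26 were called (66.7%), against 43.0% of all tested genes. ATP6V1A, NEU1, SQSTM1, ASAH1 and CTSL were higher by the largest amounts, and TFEB, NPC2, SMPD1, ATP6V1B2 and GPNMB lower. The median log2 fold change was 0.16, against -0.00404 over all genes, and the groups did not overlap for 24 genes (61.5%), against 45.2% of all tested genes. At a fold of at least 1.5, 8 of the 39 were called (20.5%), against 21.2% of all tested genes. With only genes of at least 1 CPM in 4 libraries tested, 26 of 38 were called (68.4%), against 50.3% of all genes so filtered. The split of higher and lower genes depended on the scaling, among the 39 as among all tested genes. With library sizes alone in place of the trimmed mean of M-values (TMM), 11 genes were higher (28.2%) and 9 lower (23.1%). Of all tested genes 17.9% were then higher and 23.5% lower. Of the 39 genes 20 were called (51.3%, against 41.4% of all tested genes). The calls of GLB1, LAMP1, LAMP2, TFE3, PSAP, FUCA1, ATP6V1H and ATP6AP1 were lost. Without the 2 libraries of high mitochondrial share 19 were higher (48.7%) and 12 lower (30.8%) here, against 28.8% and 28.5% of all tested genes. That was 79.5% called, against 57.3%. In ShNC + H2O2 against ShNC 12 were then higher (30.8%) and 17 lower (43.6%), against 29.8% and 29.6%. That was 74.4% called, against 59.4%. Both comparisons use the same ShNC + H2O2 libraries, on opposite sides, and their log2 fold changes are therefore set side by side below and not related to each other.

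**Figure D1:**
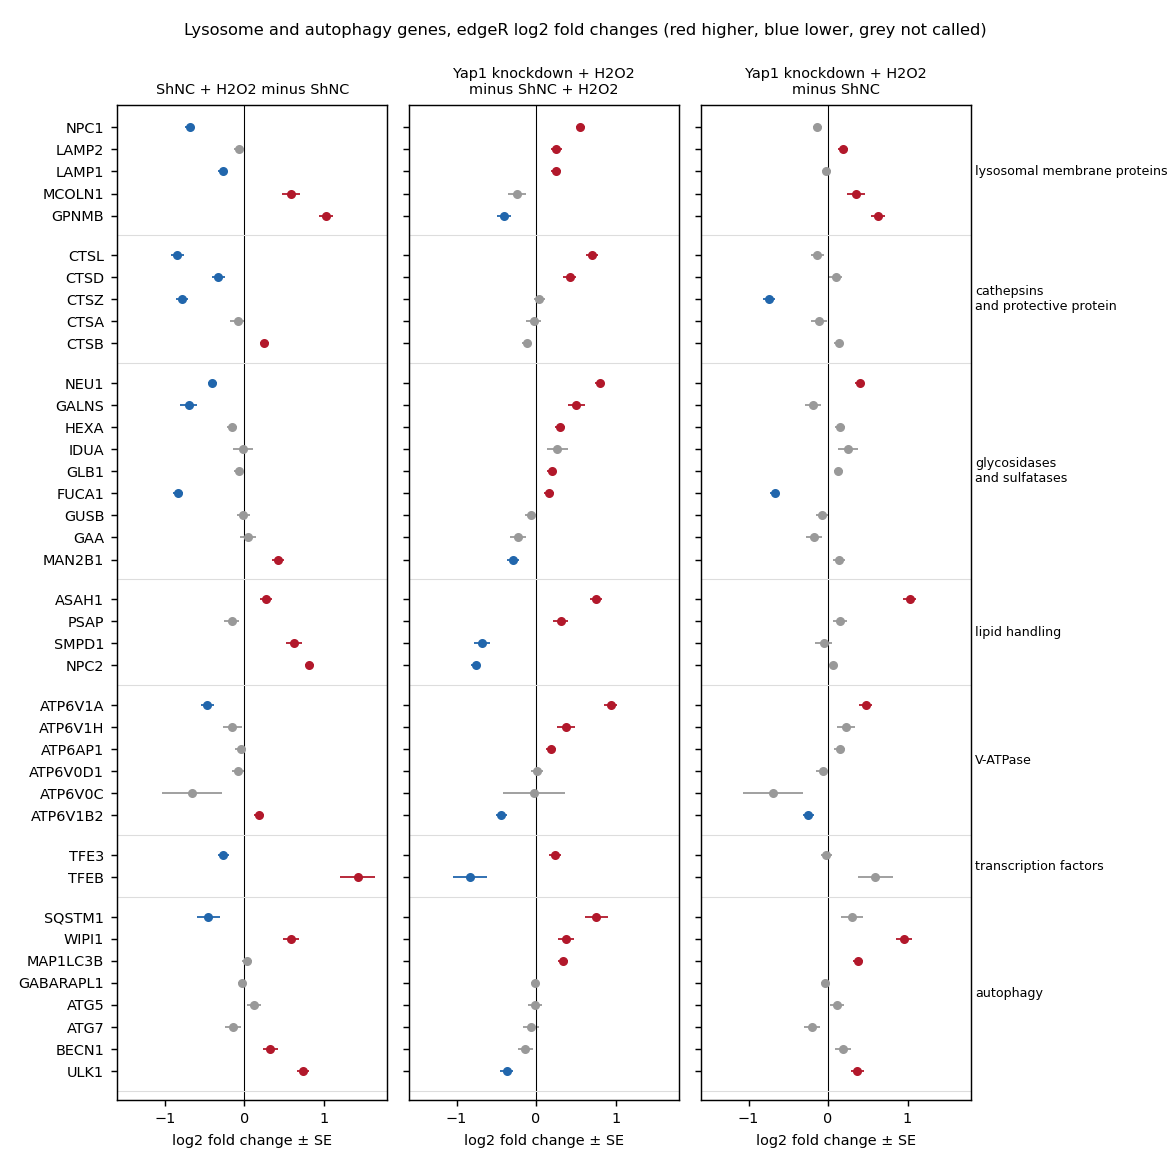
Log2 fold changes with standard errors (x axis) of the 39 genes (rows, by role) in 3 comparisons, with called genes in red (higher) or blue (lower) and the others in grey. TFEB has the largest rise in ShNC + H2O2 against ShNC at 1.43, and ATP6V1A the largest in Yap1 knockdown + H2O2 against ShNC + H2O2 at 0.94.

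Summed over the 39 genes, the level was 9058, 8922, 8655 and 9001 CPM in Yap1 knockdown + H2O2, 7555, 7647, 7572 and 7488 CPM in ShNC + H2O2, and 8758, 8811, 8921 and 7904 CPM in ShNC. The 4 ShNC + H2O2 libraries lay below all 8 others in this sum. A few genes carried much of it. Per kilobase of exon, which allows levels of different genes to be compared, PSAP averaged 839 CPM over the 12 libraries, CTSZ 374 and LAMP2 88.8. TFEB averaged 0.730 and ATP6V0C 0.196, the lowest value of the list. The value of ATP6V0C is uncertain, since 72.1% of its exon bases lie in another gene.

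GLB1 (ENSG00000170266, chr3:32996608-33097230, minus strand, GRCh38) had 114, 104, 122 and 105 CPM in Yap1 knockdown + H2O2, 94.8, 97.7, 97.2 and 98.1 CPM in ShNC + H2O2 and 99.9, 100, 102 and 105 CPM in ShNC. The ShNC + H2O2 libraries were the lowest of the 12, without overlap with either other group, but by a small margin. GLB1 was not called in ShNC + H2O2 against ShNC (log2 fold change -0.07 ± 0.06, edgeR adjusted p = 0.37). An exact two-sided permutation test over the 70 assignments of the libraries gave p = 0.0286, the smallest value 4 against 4 libraries allow. That value is not adjusted for the number of genes tested. It follows wherever the groups do not overlap, as for 48.0% of all tested genes in this comparison. In Yap1 knockdown + H2O2 against ShNC + H2O2 it was higher (0.20 ± 0.06, edgeR adjusted p = 0.0135; exact permutation p = 0.0286). That call was lost with library sizes alone (0.13, adjusted p = 0.0614) and with no filter on low counts (0.20, adjusted p = 0.0503). Against ShNC the knockdown libraries overlapped and GLB1 was not called (0.13 ± 0.06, edgeR adjusted p = 0.11, exact permutation p = 0.0571).

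**Figure D2:**
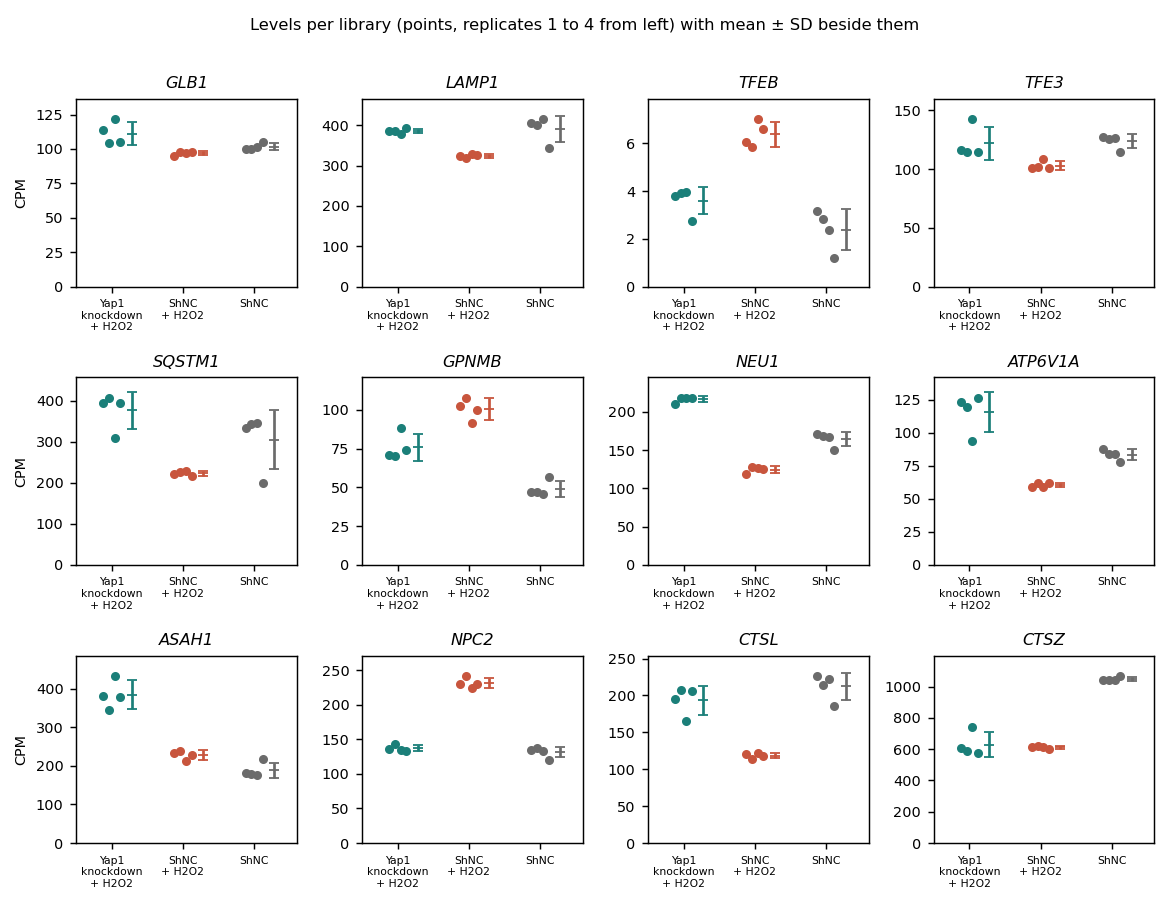
CPM (y axis, from 0) of 12 genes in each library, with Yap1 knockdown + H2O2, ShNC + H2O2 and ShNC from left to right and the mean ± SD of 4 libraries beside the points. TFEB, GPNMB and NPC2 are highest in ShNC + H2O2, GLB1, LAMP1, NEU1, ATP6V1A and CTSL are lowest there, and CTSZ is low in both H2O2 groups.

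The transcription factors TFEB and TFE3 moved in opposite directions. TFEB (ENSG00000112561, chr6:41683978-41736259, minus strand) was expressed at a low level, with 3.80, 3.90, 3.95 and 2.74 CPM in Yap1 knockdown + H2O2, 6.07, 5.86, 7.01 and 6.61 CPM in ShNC + H2O2 and 3.15, 2.82, 2.36 and 1.19 CPM in ShNC. All ShNC + H2O2 libraries lay above all others, and the lowest ShNC value was that of replicate 4. TFEB rose in ShNC + H2O2 against ShNC (log2 fold change 1.43 ± 0.22, edgeR adjusted p = 6.60e-05) and was lower in Yap1 knockdown + H2O2 than in ShNC + H2O2 (-0.83 ± 0.21, adjusted p = 0.00529; exact permutation p = 0.0286 for each). TFE3 (ENSG00000068323, chrX:49028726-49043486, minus strand), its relative that binds the same elements, had 116, 115, 142 and 114 CPM in Yap1 knockdown + H2O2, 101, 102, 108 and 101 CPM in ShNC + H2O2 and 127, 126, 126 and 115 CPM in ShNC. Here the ShNC + H2O2 libraries were the lowest, without overlap. TFE3 fell in ShNC + H2O2 against ShNC (-0.26 ± 0.07, edgeR adjusted p = 0.0079) and was higher in Yap1 knockdown + H2O2 (0.24 ± 0.07, adjusted p = 0.0144); both calls were lost with library sizes alone (adjusted p = 0.0528 and 0.0698). Per kilobase TFE3 was the more abundant of the pair, at 27.1 CPM against 0.730 CPM for TFEB. The activity of both proteins depends on phosphorylation and nuclear entry, which RNA levels do not measure.

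The promoters of these genes were searched for the hexamer CACGTG, the E-box that basic helix-loop-helix factors bind, and for the longer GTCACGTG, a part of the CLEAR element, on both strands, the second containing the first. RefSeq promoter windows from 250 bases before to 50 bases after the gene start (GRCh38.p14) were at hand for 31 of the 39 genes. GTCACGTG occurred in 7 of the 31 (22.6%), against 2.93% of 27305 genes with a window, and CACGTG in 8 (25.8%), against 8.77%. Among 159 other genes of the lysosome and autophagy with a window, 26 (16.4%) held GTCACGTG. CLEAR elements are known from genes of these pathways, so a higher share in this list tested nothing new. The shares describe genome sequence and are no result of the 12 libraries. A match is a description of letters, not a binding site. The sequences before the gene start are shown for the 8 genes with a match, since they are the promoters on which a shared element could be read, in lower case with each match in capitals. The last capital of LAMP1 is the first base of a match that runs across the start.
LAMP1 (chr13:113297039-113297238, plus strand): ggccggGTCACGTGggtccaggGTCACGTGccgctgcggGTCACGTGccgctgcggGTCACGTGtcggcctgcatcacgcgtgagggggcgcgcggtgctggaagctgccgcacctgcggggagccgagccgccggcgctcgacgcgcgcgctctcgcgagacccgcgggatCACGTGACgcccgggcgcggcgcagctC
GALNS (chr16:88856948-88857147, minus strand): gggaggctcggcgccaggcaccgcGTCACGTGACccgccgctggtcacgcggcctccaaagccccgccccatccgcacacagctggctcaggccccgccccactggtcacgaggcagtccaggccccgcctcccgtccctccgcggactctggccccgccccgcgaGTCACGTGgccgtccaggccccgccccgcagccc
GAA (chr17:80101501-80101580, plus strand): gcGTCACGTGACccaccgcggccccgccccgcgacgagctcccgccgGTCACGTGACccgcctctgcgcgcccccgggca
MCOLN1 (chr19:7522544-7522623, plus strand): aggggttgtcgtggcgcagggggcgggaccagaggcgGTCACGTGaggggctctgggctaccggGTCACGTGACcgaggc
CTSA (chr20:45891255-45891334, plus strand): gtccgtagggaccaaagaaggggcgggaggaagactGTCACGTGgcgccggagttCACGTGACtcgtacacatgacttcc
CTSD (chr11:1763928-1764007, minus strand): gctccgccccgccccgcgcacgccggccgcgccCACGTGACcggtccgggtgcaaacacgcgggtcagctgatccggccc
ATP6V0D1 (chr16:67481158-67481237, minus strand): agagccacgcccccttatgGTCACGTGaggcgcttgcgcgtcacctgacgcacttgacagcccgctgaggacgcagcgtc
NEU1 (chr6:31862822-31863021, minus strand): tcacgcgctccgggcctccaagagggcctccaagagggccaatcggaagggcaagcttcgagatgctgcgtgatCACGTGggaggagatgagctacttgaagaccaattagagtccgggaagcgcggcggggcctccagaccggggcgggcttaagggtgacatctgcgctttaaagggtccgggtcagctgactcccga

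LAMP1 held the most matches, 6 of GTCACGTG, of which 4 stand close together, the CACGTG inside them starting at -192, -176, -159 and -142 relative to the gene start, while NEU1 held CACGTG alone. The 8 genes did not move as 1 group. In ShNC + H2O2 against ShNC, LAMP1 (log2 fold change -0.27), CTSD (-0.33), GALNS (-0.70) and NEU1 (-0.40) fell and MCOLN1 (0.59) rose, while GAA (0.04), CTSA (-0.08) and ATP6V0D1 (-0.08) were not called. In Yap1 knockdown + H2O2 against ShNC + H2O2, LAMP1 (0.25), CTSD (0.42), GALNS (0.51) and NEU1 (0.80) were higher, while MCOLN1 (-0.24), GAA (-0.22), CTSA (-0.03) and ATP6V0D1 (0.01) were not called.

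**Figure D3:**
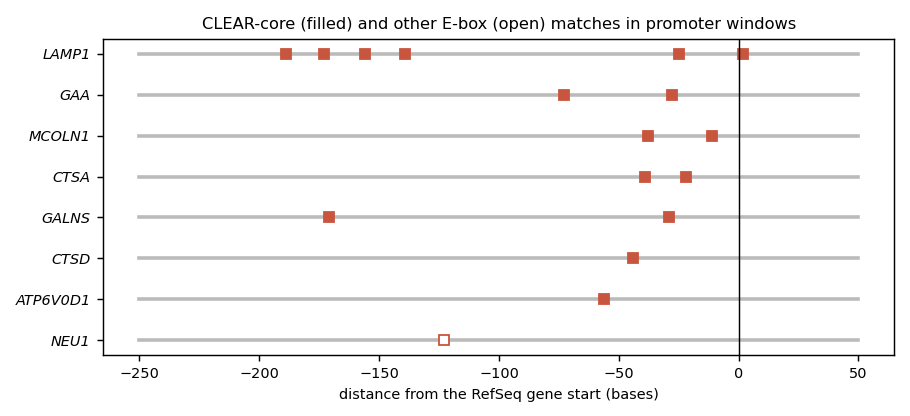
Positions of the CACGTG inside each GTCACGTG (filled squares, at the centre of the hexamer) and of a CACGTG outside it (open square) relative to the RefSeq gene start (x axis, bases) in the 300-base windows (grey lines) of 8 genes. LAMP1 has 6 matches, GAA, MCOLN1, CTSA and GALNS have 2 each, CTSD and ATP6V0D1 have 1 each, and NEU1 has the only open square.

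Among the 5 lysosomal membrane proteins, LAMP1 and NPC1 fell with H2O2 and GPNMB and MCOLN1 rose. That was 40.0% each, against 22.6% and 23.9% of all tested genes. LAMP1 (ENSG00000185896, chr13:113297241-113323672, plus strand), one of the heavily glycosylated proteins that line the lysosomal membrane, had 387, 385, 378 and 392 CPM in Yap1 knockdown + H2O2, 323, 319, 328 and 326 CPM in ShNC + H2O2 and 405, 399.7, 415 and 345 CPM in ShNC. The ShNC + H2O2 libraries were lowest and close to each other, and ShNC replicate 4 was the low library of its group. LAMP1 fell in ShNC + H2O2 against ShNC (log2 fold change -0.27 ± 0.06, edgeR adjusted p = 0.00147) and was higher in Yap1 knockdown + H2O2 (0.25 ± 0.06, adjusted p = 0.00296; exact permutation p = 0.0286 for each). With library sizes alone both calls were lost (adjusted p = 0.0651 and 0.0756). LAMP2, its paralogue with a splice form that serves chaperone-mediated autophagy, averaged 542 ± 49.3 CPM in Yap1 knockdown + H2O2, 455 ± 21.2 CPM in ShNC + H2O2 and 476 ± 15.7 CPM in ShNC (SD of 4 libraries). It was not called with H2O2 (-0.06 ± 0.07, adjusted p = 0.464) and was higher in Yap1 knockdown + H2O2 than in ShNC + H2O2 (0.25 ± 0.07, adjusted p = 0.00684), with groups that overlapped because replicate 3 of the knockdown libraries lay at 470.0 CPM. With library sizes alone that call was lost (adjusted p = 0.0725).

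GPNMB (ENSG00000136235, chr7:23235967-23275108, plus strand), a transmembrane glycoprotein known to accumulate in cells with stressed lysosomes, had 70.9, 70.0, 88.2 and 73.9 CPM in Yap1 knockdown + H2O2, 103, 108, 91.2 and 99.7 CPM in ShNC + H2O2 and 46.7, 47.1, 45.6 and 56.9 CPM in ShNC. The 3 groups did not overlap, with ShNC + H2O2 on top and ShNC at the bottom. GPNMB rose in ShNC + H2O2 against ShNC (log2 fold change 1.03 ± 0.09, edgeR adjusted p = 1.52e-07) and was lower in Yap1 knockdown + H2O2 than in ShNC + H2O2 (-0.41 ± 0.09, adjusted p = 0.00164). NPC1, the membrane protein that exports cholesterol from lysosomes, had 371, 385, 380.2 and 363 CPM in Yap1 knockdown + H2O2, 252, 256, 263 and 251 CPM in ShNC + H2O2 and 393, 391, 419 and 442 CPM in ShNC. ShNC + H2O2 was the low group, the knockdown libraries lay between it and ShNC, and no groups overlapped. NPC1 fell with H2O2 (-0.69 ± 0.06, edgeR adjusted p = 5.99e-08) and was higher in Yap1 knockdown + H2O2 (0.55 ± 0.06, adjusted p = 1.00e-06). MCOLN1, the lysosomal cation channel TRPML1 through which calcium leaves, averaged 13.7 ± 2.41 CPM in Yap1 knockdown + H2O2, 16.2 ± 1.09 CPM in ShNC + H2O2 and 10.8 ± 0.781 CPM in ShNC. It rose with H2O2 (0.59 ± 0.11, adjusted p = 0.000449). It was not called in Yap1 knockdown + H2O2 against ShNC + H2O2 (-0.24 ± 0.11, adjusted p = 0.0978), but was lower without replicate 3 of the knockdown libraries (-0.36, adjusted p = 0.00353), which had the highest value of its group, 17.2 CPM, and with library sizes alone (-0.31, adjusted p = 0.0262).

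Of the cathepsins, CTSL, CTSD and CTSZ fell with H2O2 and CTSB rose, and CTSL and CTSD were higher in the knockdown libraries. CTSL, a cysteine protease with a broad range of substrates, had 195, 207, 165 and 205 CPM in Yap1 knockdown + H2O2, 120.2, 114, 122 and 118 CPM in ShNC + H2O2 and 227, 214, 223 and 185 CPM in ShNC. No ShNC + H2O2 library came within the range of another group. CTSL fell with H2O2 (log2 fold change -0.84 ± 0.08, edgeR adjusted p = 3.48e-07) and was higher in Yap1 knockdown + H2O2 than in ShNC + H2O2 (0.71 ± 0.08, adjusted p = 3.28e-06). CTSZ, a carboxypeptidase, had 605, 587, 744 and 578 CPM in Yap1 knockdown + H2O2, 612, 620.5, 612 and 598 CPM in ShNC + H2O2 and 1043, 1043, 1045 and 1069 CPM in ShNC. Both H2O2 groups lay far below ShNC and overlapped with each other. CTSZ fell with H2O2 (-0.78 ± 0.07, edgeR adjusted p = 3.10e-07) and was not called between the H2O2 groups (0.04 ± 0.07, adjusted p = 0.678).

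CTSD, the main aspartic protease of lysosomes, averaged 299 ± 32.4 CPM in Yap1 knockdown + H2O2, 223 ± 1.84 CPM in ShNC + H2O2 and 279.9 ± 24.7 CPM in ShNC. It fell with H2O2 (log2 fold change -0.33 ± 0.08, edgeR adjusted p = 0.00281) and was higher in Yap1 knockdown + H2O2 (0.42 ± 0.08, adjusted p = 0.000425), as uncertain values, since 52.7% of its exon bases lie in another gene and strand use in counting is not stated. CTSB, a cysteine protease that can leak from damaged lysosomes, averaged 281 ± 5.74 CPM in Yap1 knockdown + H2O2, 305 ± 13.3 CPM in ShNC + H2O2 and 256 ± 12.1 CPM in ShNC. It rose with H2O2 (0.25 ± 0.06, edgeR adjusted p = 0.0014). It was not called in the knockdown comparison (-0.12 ± 0.06, adjusted p = 0.101), where the groups did not overlap and the call was reached without ShNC replicate 4 (-0.12, adjusted p = 0.0305). CTSA, the carboxypeptidase that protects GLB1 and NEU1 from degradation, averaged 308 ± 56.1 CPM in Yap1 knockdown + H2O2, 315 ± 6.69 CPM in ShNC + H2O2 and 333 ± 23.2 CPM in ShNC and was called in neither comparison (-0.08 ± 0.10 with H2O2 and -0.03 ± 0.10 with the knockdown). Its spread in the knockdown group came from replicate 3 at 392 CPM, without which CTSA was lower than in ShNC + H2O2 (-0.17, adjusted p = 0.0219); 28.5% of its exon bases are shared with another gene.

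The 9 glycosidases and sulfatases remove sugars and sulfate from glycoproteins, glycolipids and glycosaminoglycans. With H2O2 3 of them fell (FUCA1, GALNS, NEU1) and 1 rose (MAN2B1). That was 33.3% and 11.1%, against 22.6% and 23.9% of all tested genes. In the knockdown libraries 5 were higher than in ShNC + H2O2 (NEU1, GALNS, HEXA, GLB1, FUCA1) and 1 lower (MAN2B1). That was 55.6% and 11.1%, against 22.0% and 21.0% of all tested genes. NEU1, the lysosomal sialidase, had 210.5, 218, 219 and 218 CPM in Yap1 knockdown + H2O2, 118, 128, 126 and 125 CPM in ShNC + H2O2 and 170.4, 168, 167 and 150.4 CPM in ShNC. The knockdown libraries were highest and ShNC + H2O2 lowest, with no overlap between any groups. NEU1 fell with H2O2 (log2 fold change -0.40 ± 0.06, edgeR adjusted p = 2.54e-05) and was higher in Yap1 knockdown + H2O2 (0.80 ± 0.06, adjusted p = 2.09e-08). GALNS, a sulfatase of keratan and chondroitin sulfate, had 17.7, 15.3, 22.0 and 16.2 CPM in Yap1 knockdown + H2O2, 13.2, 12.1, 12.4 and 12.3 CPM in ShNC + H2O2 and 20.4, 19.3, 19.9 and 21.6 CPM in ShNC. Only the ShNC + H2O2 group stood apart. GALNS fell with H2O2 (-0.70 ± 0.10, edgeR adjusted p = 3.56e-05) and was higher in the knockdown libraries (0.51 ± 0.10, adjusted p = 0.000811).

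FUCA1, the alpha-fucosidase of lysosomes, had 72.6, 70.4, 72.7 and 72.2 CPM in Yap1 knockdown + H2O2, 65.0, 67.4, 61.2 and 63.5 CPM in ShNC + H2O2 and 109, 109.5, 115 and 124 CPM in ShNC. Every H2O2 library lay far below every ShNC library, and the H2O2 groups were close to each other. FUCA1 fell with H2O2 (log2 fold change -0.83 ± 0.06, edgeR adjusted p = 1.41e-08). Its difference in Yap1 knockdown + H2O2 against ShNC + H2O2 was small (0.16 ± 0.06, adjusted p = 0.0367) and lost the call without any 1 of 6 libraries, with adjusted p = 0.0503 without ShNC replicate 3, 0.0694, 0.107 and 0.0892 without ShNC + H2O2 replicates 1, 3 or 4, and 0.0755 and 0.0706 without Yap1 knockdown + H2O2 replicates 1 or 4. It was lost as well with library sizes alone (0.10, adjusted p = 0.182), no filter on low counts (adjusted p = 0.136) and the replicate block (adjusted p = 0.0617). HEXA, the alpha subunit of beta-hexosaminidase, averaged 31.6 ± 1.15 CPM in Yap1 knockdown + H2O2, 25.5 ± 1.04 CPM in ShNC + H2O2 and 28.3 ± 0.618 CPM in ShNC, with no overlap between any of the groups. It was higher in the knockdown libraries (0.30 ± 0.06, edgeR adjusted p = 0.000998) and not called with H2O2 (-0.15 ± 0.06, adjusted p = 0.0625), although the fall passed without ShNC replicate 4 (adjusted p = 0.0245) or Yap1 knockdown + H2O2 replicate 3 (adjusted p = 0.0328), and in DESeq2 (adjusted p = 0.0193).

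MAN2B1, the lysosomal alpha-mannosidase, averaged 63.3 ± 7.27 CPM in Yap1 knockdown + H2O2, 77.4 ± 2.39 CPM in ShNC + H2O2 and 57.6 ± 2.59 CPM in ShNC. It rose with H2O2 (log2 fold change 0.43 ± 0.07, edgeR adjusted p = 0.000225) and was lower in the knockdown libraries (-0.29 ± 0.07, adjusted p = 0.00545), while 21.2% of its exon bases lie in another gene. GUSB, the beta-glucuronidase, averaged 118 ± 10.3 CPM in Yap1 knockdown + H2O2, 123 ± 3.70 CPM in ShNC + H2O2 and 124 ± 13.3 CPM in ShNC and was called in neither comparison (-0.01 ± 0.08 and -0.06 ± 0.08). IDUA, the iduronidase of heparan and dermatan sulfate, averaged 11.8 ± 2.50 CPM in Yap1 knockdown + H2O2, 9.81 ± 0.769 CPM in ShNC + H2O2 and 9.90 ± 0.954 CPM in ShNC and was not called either (-0.01 ± 0.13 and 0.27 ± 0.13). GAA, the acid glucosidase that degrades glycogen, averaged 41.0 ± 6.03 CPM in Yap1 knockdown + H2O2, 47.9 ± 1.21 CPM in ShNC + H2O2 and 46.4 ± 5.22 CPM in ShNC. It was not called with H2O2 (0.04 ± 0.10) or in the knockdown comparison (-0.22 ± 0.10, edgeR adjusted p = 0.0818), but the knockdown libraries were called lower without ShNC replicate 4 (-0.23, adjusted p = 0.0282) or Yap1 knockdown + H2O2 replicate 3 (-0.33, adjusted p = 0.00553), and with library sizes alone (-0.29, adjusted p = 0.038).

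The 4 genes of lipid handling were all called in Yap1 knockdown + H2O2 against ShNC + H2O2, with ASAH1 and PSAP higher and NPC2 and SMPD1 lower. Of all tested genes 43.0% were called there. With H2O2 3 of the 4 rose (75.0%), against 23.9% of all tested genes. In a list this short 1 gene moves a share by much. NPC2, the soluble carrier that hands cholesterol to NPC1, had 136, 143, 134 and 134 CPM in Yap1 knockdown + H2O2, 229.8, 242, 224 and 229 CPM in ShNC + H2O2 and 135, 137, 133 and 120.4 CPM in ShNC. ShNC + H2O2 stood high above both other groups, which overlapped. NPC2 rose with H2O2 (log2 fold change 0.82 ± 0.06, edgeR adjusted p = 1.18e-08) and was lower in the knockdown libraries (-0.76 ± 0.06, adjusted p = 4.58e-08), against -0.69 and 0.55 for its partner NPC1. SMPD1, the acid sphingomyelinase that forms ceramide, had 8.06, 7.02, 9.32 and 7.12 CPM in Yap1 knockdown + H2O2, 12.5, 12.5, 11.8 and 13.7 CPM in ShNC + H2O2 and 8.47, 7.63, 8.07 and 8.58 CPM in ShNC. It too was highest in all ShNC + H2O2 libraries. SMPD1 rose with H2O2 (0.62 ± 0.10, edgeR adjusted p = 0.000118) and was lower in the knockdown libraries (-0.68 ± 0.10, adjusted p = 6.58e-05).

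ASAH1, the acid ceramidase that cleaves ceramide to sphingosine, had 381, 344, 433 and 379 CPM in Yap1 knockdown + H2O2, 234, 239, 211 and 227 CPM in ShNC + H2O2 and 181, 179.8, 176 and 217 CPM in ShNC. All knockdown libraries lay above all others, while ShNC + H2O2 overlapped with ShNC through ShNC replicate 4. ASAH1 rose with H2O2 (log2 fold change 0.27 ± 0.08, edgeR adjusted p = 0.0107) and was higher again in Yap1 knockdown + H2O2 than in ShNC + H2O2 (0.75 ± 0.08, adjusted p = 2.11e-06). PSAP, the precursor of the saposins that help sphingolipid hydrolases, had the highest level of the list per kilobase, with 3196, 3114, 2566 and 3159.8 CPM in Yap1 knockdown + H2O2, 2449.8, 2452, 2440.0 and 2378 CPM in ShNC + H2O2 and 2834, 2879, 2936 and 2188 CPM in ShNC. The lowest value of the knockdown group was that of replicate 3 and the lowest of ShNC that of replicate 4, the libraries of high mitochondrial share. PSAP was higher in the knockdown libraries (0.31 ± 0.09, edgeR adjusted p = 0.0131; lost with library sizes alone, adjusted p = 0.114). It was not called with H2O2 (-0.16 ± 0.09, adjusted p = 0.177), but fell without ShNC replicate 4 (-0.25, adjusted p = 0.00373).

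Among the 6 V-ATPase genes 1 fell and 1 rose with H2O2, and 3 were higher and 1 lower in the knockdown libraries. ATP6V1A (ENSG00000114573, chr3:113747019-113812056, plus strand), the catalytic subunit, had 123, 119.6, 93.7 and 127 CPM in Yap1 knockdown + H2O2, 58.7, 61.6, 59.3 and 62.1 CPM in ShNC + H2O2 and 87.9, 83.9, 83.6 and 78.1 CPM in ShNC. The groups did not overlap, with the knockdown libraries highest and ShNC + H2O2 lowest. ATP6V1A fell with H2O2 (log2 fold change -0.46 ± 0.08, edgeR adjusted p = 0.000245) and was higher in Yap1 knockdown + H2O2 (0.94 ± 0.08, adjusted p = 2.55e-07). ATP6V1B2, the other nucleotide-binding subunit of the same ring, had 122, 126, 104 and 124 CPM in Yap1 knockdown + H2O2, 161, 168, 157 and 159 CPM in ShNC + H2O2 and 135, 141, 147 and 143 CPM in ShNC. Its order was the reverse, with ShNC + H2O2 highest and the knockdown libraries lowest, again without overlap. ATP6V1B2 was lower in the knockdown libraries (-0.44 ± 0.06, edgeR adjusted p = 5.61e-05) and rose slightly with H2O2 (0.19 ± 0.06, adjusted p = 0.0245). The rise lost its call without ShNC replicate 1 (adjusted p = 0.0751), ShNC replicate 2 (0.0563) or ShNC + H2O2 replicate 2 (0.0705), and with no filter on low counts (0.0691).

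ATP6V1H, a regulatory subunit, averaged 76.3 ± 12.6 CPM in Yap1 knockdown + H2O2, 58.8 ± 4.86 CPM in ShNC + H2O2 and 65.1 ± 7.67 CPM in ShNC. It was higher in the knockdown libraries (log2 fold change 0.38 ± 0.12, edgeR adjusted p = 0.0151) with groups that overlapped, and lost the call without ShNC + H2O2 replicate 4 (adjusted p = 0.0512) or Yap1 knockdown + H2O2 replicate 4 (0.0547) and with library sizes alone (0.0838). ATP6AP1, an assembly factor of the pump, averaged 165 ± 14.2 CPM in Yap1 knockdown + H2O2, 145 ± 3.23 CPM in ShNC + H2O2 and 149 ± 6.94 CPM in ShNC. It was slightly higher in the knockdown libraries (0.19 ± 0.06, edgeR adjusted p = 0.0255), a call lost without ShNC + H2O2 replicate 1 (adjusted p = 0.0748), 3 (0.0596) or 4 (0.0511), with library sizes alone (0.153) and with no filter on low counts (0.0555). ATP6V1H (-0.15 ± 0.12) and ATP6AP1 (-0.05 ± 0.06) were not called with H2O2. ATP6V0D1, a subunit of the membrane sector, was called in neither comparison (-0.08 ± 0.08 with H2O2 and 0.01 ± 0.08 with the knockdown). ATP6V0C, which forms the proton-carrying ring, had 0.167 to 0.312 CPM in Yap1 knockdown + H2O2, 0.127 to 0.344 CPM in ShNC + H2O2 and 0.297 to 0.553 CPM in ShNC. Of its exon bases 72.1% lie in another gene, which is not among the counted genes. How reads in the shared bases were assigned is not known. ATP6V0C was not called (-0.66 ± 0.38 and -0.03 ± 0.39).

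Of the 8 autophagy genes, ULK1, WIPI1 and BECN1 rose with H2O2 and SQSTM1 fell (37.5% and 12.5%), against 23.9% and 22.6% of all tested genes. SQSTM1, WIPI1 and MAP1LC3B were higher and ULK1 lower in the knockdown libraries (37.5% and 12.5%), against 22.0% and 21.0%. ULK1, the kinase that initiates autophagy, had 63.7, 64.2, 72.5 and 61.5 CPM in Yap1 knockdown + H2O2, 87.7, 86.4, 81.4 and 83.1 CPM in ShNC + H2O2 and 52.7, 51.3, 55.7 and 42.8 CPM in ShNC. The groups did not overlap, with ShNC + H2O2 highest. ULK1 rose with H2O2 (log2 fold change 0.74 ± 0.08, edgeR adjusted p = 1.56e-06) and was lower in the knockdown libraries (-0.37 ± 0.08, adjusted p = 0.00137). WIPI1, which binds phosphatidylinositol 3-phosphate on the forming membrane, had 19.2, 22.6, 17.2 and 19.8 CPM in Yap1 knockdown + H2O2, 13.8, 14.6, 17.4 and 15.0 CPM in ShNC + H2O2 and 10.8, 9.30, 10.5 and 9.91 CPM in ShNC. Both H2O2 groups lay above ShNC and overlapped with each other. WIPI1 rose with H2O2 (0.59 ± 0.10, edgeR adjusted p = 0.00018) and was higher in the knockdown libraries (0.37 ± 0.10, adjusted p = 0.00616), while 28.1% of its exon bases lie in another gene. BECN1, of the lipid kinase complex that nucleates the membrane, averaged 43.9 ± 5.59 CPM in Yap1 knockdown + H2O2, 48.3 ± 0.817 CPM in ShNC + H2O2 and 38.5 ± 4.33 CPM in ShNC. It rose with H2O2 (0.33 ± 0.10, edgeR adjusted p = 0.0106) and was not called in the knockdown comparison (-0.14 ± 0.10, adjusted p = 0.268).

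SQSTM1 (ENSG00000161011, chr5:179806398-179838078, plus strand), the cargo receptor p62 that is itself degraded by autophagy, had 395, 408, 310.1 and 394 CPM in Yap1 knockdown + H2O2, 221, 225, 229.6 and 217 CPM in ShNC + H2O2 and 334, 343, 347 and 199 CPM in ShNC. The knockdown libraries lay above all ShNC + H2O2 libraries, whereas ShNC replicate 4 lay below every ShNC + H2O2 library, so that these groups overlapped. SQSTM1 was higher in Yap1 knockdown + H2O2 (log2 fold change 0.76 ± 0.14, edgeR adjusted p = 0.000699, exact permutation p = 0.0286). Its fall with H2O2 (-0.45 ± 0.14, edgeR adjusted p = 0.0183, exact permutation p = 0.143) missed the threshold when ShNC replicate 1 (adjusted p = 0.0521), 2 (0.0515) or 3 (0.0556) was left out, with library sizes alone (-0.38, adjusted p = 0.0789) and with no filter on low counts (-0.46, adjusted p = 0.0855). It stood at -0.62, still called, without the 2 libraries of high mitochondrial share. Of its exon bases 22.0% lie in another gene.

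MAP1LC3B, the LC3 protein that coats autophagosomes, had 132, 136, 136 and 137 CPM in Yap1 knockdown + H2O2, 109.7, 104, 106 and 107 CPM in ShNC + H2O2 and 94.9, 96.8, 111 and 114 CPM in ShNC. The knockdown libraries were the highest 4, and the other groups overlapped. MAP1LC3B was higher in Yap1 knockdown + H2O2 than in ShNC + H2O2 (log2 fold change 0.34 ± 0.06, edgeR adjusted p = 0.00053) and not called with H2O2 (0.04 ± 0.06, adjusted p = 0.688). GABARAPL1, of the same family of membrane-coupled proteins, averaged 173 ± 3.84 CPM in Yap1 knockdown + H2O2, 175 ± 2.22 CPM in ShNC + H2O2 and 179 ± 5.13 CPM in ShNC and was called in neither comparison (-0.03 ± 0.05 and -0.02 ± 0.05). ATG5 and ATG7, which couple these proteins to lipid, were not called either, at 0.13 ± 0.09 and -0.02 ± 0.09 for ATG5 and -0.14 ± 0.10 and -0.06 ± 0.10 for ATG7, though ATG7 fell with H2O2 without ShNC replicate 4 (-0.23, adjusted p = 0.0381).

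The third comparison, Yap1 knockdown + H2O2 against ShNC, combines the oxidant and the knockdown. In it 9 of the 39 genes were higher and 3 lower (23.1% and 7.69%), where 17.4% of all tested genes were higher and 15.1% lower; 12 were called (30.8%), against 32.5% of all tested genes. The median log2 fold change was 0.13, against 0.00166 over all genes, and the groups did not overlap for 14 genes (35.9%), against 29.7% of all tested genes. With only genes of at least 1 CPM in 4 libraries tested, 13 of 38 were called (34.2%), against 39.8% of all genes so filtered. ASAH1 was highest (1.03 ± 0.08, edgeR adjusted p = 1.67e-07) and the only one past 2-fold, followed by WIPI1 (0.96 ± 0.10), GPNMB (0.63 ± 0.09), ATP6V1A (0.47 ± 0.08), NEU1 (0.40 ± 0.06), MAP1LC3B (0.37 ± 0.06), ULK1 (0.37 ± 0.08), MCOLN1 (0.35 ± 0.11) and LAMP2 (0.19 ± 0.07). CTSZ (-0.74 ± 0.07), FUCA1 (-0.67 ± 0.06) and ATP6V1B2 (-0.25 ± 0.06) were lower, with edgeR adjusted p of 1.62e-06, 5.28e-07 and 0.00832. Some genes were called in both other comparisons and not in this one. Of those that rose with H2O2 they were NPC2 (0.06 ± 0.06), MAN2B1 (0.14 ± 0.07), SMPD1 (-0.06 ± 0.10) and TFEB (0.60 ± 0.22). Of those that fell they were LAMP1 (-0.02 ± 0.06), CTSD (0.10 ± 0.08), CTSL (-0.13 ± 0.08), NPC1 (-0.13 ± 0.06), GALNS (-0.19 ± 0.10), TFE3 (-0.02 ± 0.07) and SQSTM1 (0.30 ± 0.14). A missing call does not show a return to the ShNC level, which was not tested. NPC1 alone of these genes did not overlap, at 363 to 385 CPM against 391 to 442 CPM in ShNC. DESeq2 called it lower (-0.14, adjusted p = 0.036). So did edgeR with the filter of 1 CPM in 4 libraries (-0.15, adjusted p = 0.0422). Dropping both libraries rich in mitochondrial counts gave -0.11 (edgeR adjusted p = 0.00858).

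The count in this comparison moved most with single libraries. Without both libraries of high mitochondrial share 14 genes were higher (35.9%) and 12 lower (30.8%), against 24.0% and 22.8% of all tested genes. That was 66.7% called, against 46.8%. Among the added calls SQSTM1 was higher (0.22, edgeR adjusted p = 1.32e-06) and GUSB (-0.21) and TFE3 (-0.15) lower. The call of LAMP2 was lost without any 1 of 10 libraries, with adjusted p between 0.0523 without ShNC + H2O2 replicate 3 and 0.131 without Yap1 knockdown + H2O2 replicate 4, and held only without ShNC replicate 4 or knockdown replicate 3. MCOLN1 lost its call when any of ShNC replicate 2 (adjusted p = 0.0554), ShNC replicate 3 (0.079) and Yap1 knockdown + H2O2 replicate 3 (0.0591) was left out. The lower ATP6V1B2 lost its call with library sizes alone (adjusted p = 0.0543). TFEB, not called with all libraries (0.60 ± 0.22, adjusted p = 0.0529), was higher without ShNC replicate 1 (0.75, adjusted p = 0.0257) or Yap1 knockdown + H2O2 replicate 4 (0.71, adjusted p = 0.0337) and in DESeq2 (adjusted p = 0.0276). Without Yap1 knockdown + H2O2 replicate 3 the count was 18 (46.2%, against 34.7% of all tested genes), as ATP6V1H (0.34), BECN1 (0.28), PSAP (0.22) and ATG5 (0.20) were called higher and GALNS (-0.31), GAA (-0.28) and CTSA (-0.25) lower. Without ShNC replicate 4 the count was 15 (38.5%, against 37.2%), as ATG7 (-0.29), GAA (-0.27) and CTSL (-0.20) were called lower.

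Some of these genes moved together with the genes around them on the chromosome. For each gene the median log2 fold change of the 25 tested genes on either side was taken, and the difference was tested again with that median subtracted. The neighbours of ATP6V1A had a median of -0.60 with H2O2 and of 0.54 in Yap1 knockdown + H2O2 against ShNC + H2O2. Relative to them its fall with H2O2 turned to 0.14 (edgeR adjusted p = 0.187) and its higher level in the knockdown libraries shrank to 0.40 (adjusted p = 0.00112). The higher MAP1LC3B of the knockdown libraries was 0.05 (adjusted p = 0.565) relative to a neighbour median of 0.29. The rise of MAN2B1 with H2O2 was 0.11 (adjusted p = 0.27) and its lower level in the knockdown libraries turned to 0.03 (adjusted p = 0.792). For MAP1LC3B and MAN2B1 the difference was thus close to that of the surrounding genes.

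**Figure D4:**
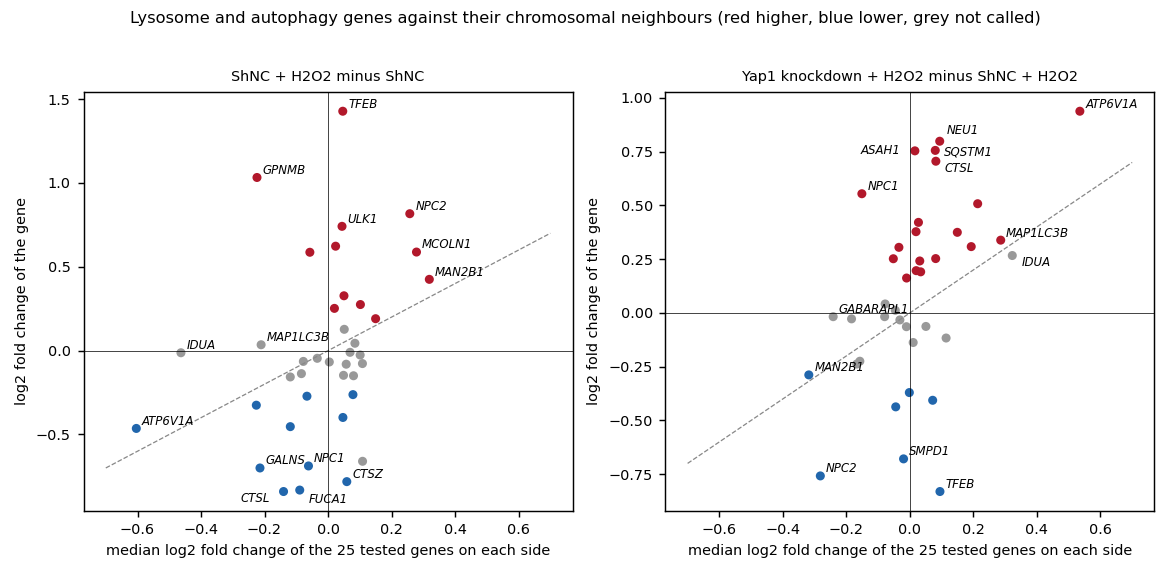
Log2 fold change of each of the 39 genes (y axis) against the median log2 fold change of the 25 tested genes on either side of it on the chromosome (x axis), with equality as a dashed line. ATP6V1A, MAN2B1 and MAP1LC3B (right panel) lie near the line or share its direction, while TFEB, GPNMB, CTSL, NEU1 and SMPD1 lie far from it.

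The fall of CTSD with H2O2 also shrank to -0.10 (edgeR adjusted p = 0.326) and that of SQSTM1 to -0.33 (adjusted p = 0.0739), and the rises of ASAH1 (0.17, adjusted p = 0.0966) and ATP6V1B2 (0.04, adjusted p = 0.647) were lost. In the knockdown comparison LAMP2 (0.17), PSAP (0.11), ATP6AP1 (0.16) and WIPI1 (0.22) kept their direction and lost their calls. In the other direction, IDUA rose relative to its neighbours with H2O2 (0.45, adjusted p = 0.0107), which had a median of -0.46, and GABARAPL1 was higher relative to its neighbours in the knockdown libraries (0.22, adjusted p = 0.00195), which had a median of -0.24. HEXA (-0.23) fell and MAP1LC3B (0.25) rose relative to their neighbours with H2O2, and CTSB was lower in the knockdown libraries (-0.23). The calls of TFEB, GPNMB, NPC2, ULK1, SMPD1, CTSL, CTSZ, FUCA1, GALNS, NPC1 and NEU1 with H2O2 held with the same sign. With the shift removed 11 of the 39 genes rose (28.2%) and 10 fell (25.6%) with H2O2, against 22.3% and 21.0% of all tested genes. That was 21 called (53.8%, against 43.3%). In the knockdown libraries 15 were then higher (38.5%) and 7 lower (17.9%) than in ShNC + H2O2, against 20.1% and 19.6%. That was 22 called (56.4%, against 39.6%).

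Of 205 other genes listed for the same pathways 201 were tested. In ShNC + H2O2 against ShNC 55 rose (27.4%) and 63 fell (31.3%), against 23.9% and 22.6% of all tested genes. Their median log2 fold change was -0.02, against 0.00399 over all genes. In Yap1 knockdown + H2O2 against ShNC + H2O2 78 were higher (38.8%) and 37 lower (18.4%), against 22.0% and 21.0% of all tested genes. The median was 0.14, against -0.00404 over all genes. Whether these shares differ from those of the 39 genes was not tested. The shares of the lists that follow stand against the same 23.9% and 22.6% with H2O2 and 22.0% and 21.0% in the knockdown comparison, and in short lists 1 gene moves a share by several percent.

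Among 39 other lysosomal hydrolases and activators, 9 rose (23.1%) and 15 fell (38.5%) with H2O2, and 11 were higher (28.2%) and 10 lower (25.6%) in the knockdown libraries. CTSH, an aminopeptidase of the cathepsin family, rose with H2O2 (1.66 ± 0.06) and was lower in Yap1 knockdown + H2O2 than in ShNC + H2O2 (-0.61 ± 0.06), where it still lay above ShNC (1.04 ± 0.06, edgeR adjusted p = 1.13e-08). LIPA, the acid lipase, rose with H2O2 (1.63 ± 0.11), was lower in the knockdown libraries than in ShNC + H2O2 (-1.34 ± 0.11) and was called slightly higher than in ShNC (0.28 ± 0.10, adjusted p = 0.0494). CTSC, which activates other proteases, fell with H2O2 (-0.88 ± 0.08) and was higher in the knockdown libraries (0.76 ± 0.08). LGMN, an asparagine-specific protease, was not called with H2O2 (-0.02 ± 0.06) and was higher in the knockdown libraries (1.06 ± 0.07), whereas NAAA, an amidase of lipid amides, was lower there (-0.87 ± 0.13). Of 30 other lysosomal membrane proteins 7 rose (23.3%) and 7 fell (23.3%) with H2O2, and 12 were higher (40.0%) and 8 lower (26.7%) in the knockdown libraries. GLMP, a glycosylated membrane protein, had the largest fall with H2O2 of those averaging at least 5 CPM (-1.02 ± 0.21) and was higher in the knockdown libraries (1.05 ± 0.21), with neighbour medians of -0.48 and 0.57. ABCD4, a transporter of cobalamin, rose with H2O2 (0.71 ± 0.09) and was lower in the knockdown libraries (-0.68 ± 0.09).

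Of 17 other V-ATPase subunits 4 rose (23.5%) and 8 fell (47.1%) with H2O2, and 8 were higher (47.1%) and 2 lower (11.8%) in the knockdown libraries. ATP6V0D2 and ATP6V0A4, alternative subunits of its membrane sector, had the largest differences among those averaging at least 5 CPM. ATP6V0D2 averaged 33.8 ± 4.71 CPM in Yap1 knockdown + H2O2, 4.42 ± 1.08 CPM in ShNC + H2O2 and 4.86 ± 0.397 CPM in ShNC (log2 fold change 2.94 ± 0.15 with the knockdown, edgeR adjusted p = 5.41e-10), and ATP6V0A4 averaged 7.47 ± 0.930 CPM in Yap1 knockdown + H2O2, 2.82 ± 0.684 CPM in ShNC + H2O2 and 14.1 ± 1.47 CPM in ShNC (-2.33 ± 0.16 with H2O2 and 1.41 ± 0.16 with the knockdown). ATP6V0A2, an alternative to ATP6V0A4 in the pump, rose with H2O2 (0.63 ± 0.06) and was not called in the knockdown comparison (0.14 ± 0.06). Of 26 members and regulators of the TFEB family and mTORC1, 6 rose (23.1%) and 10 fell (38.5%) with H2O2, and 13 were higher (50%) and 3 lower (11.5%) in the knockdown libraries. RRAGD, a Rag GTPase through which mTORC1 reaches TFEB and TFE3, averaged 109.9 ± 4.71 CPM in Yap1 knockdown + H2O2, 35.0 ± 2.03 CPM in ShNC + H2O2 and 58.2 ± 3.44 CPM in ShNC (-0.74 ± 0.07 and 1.65 ± 0.07), and FNIP2, a partner of folliculin, averaged 156 ± 5.04 CPM in Yap1 knockdown + H2O2, 58.9 ± 1.68 CPM in ShNC + H2O2 and 139 ± 10.9 CPM in ShNC (-1.24 ± 0.06 and 1.40 ± 0.06). Both were lowest in ShNC + H2O2, as TFE3 was and TFEB was not. RRAGC, the closest relative of RRAGD, rose with H2O2 (0.51 ± 0.09) and was higher again in the knockdown libraries (0.31 ± 0.09). Another gene covers 22.9% of its exon bases.

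Among 20 other genes of autophagy initiation and nucleation 11 rose (55.0%) and 2 fell (10.0%) with H2O2, and in the knockdown libraries 6 were higher (30.0%) and 7 lower (35.0%). The kinase ULK2 stood at 0.75 ± 0.10 with H2O2 beside ULK1 at 0.74 ± 0.08, and PIK3R4, the regulatory subunit of the lipid kinase that BECN1 belongs to, fell (-0.52 ± 0.07), among neighbours with a median of -0.57. Of 12 other genes of the conjugation of LC3 proteins 3 rose (25%) and 4 fell (33.3%) with H2O2, and 3 were higher (25%) and 2 lower (16.7%) in the knockdown libraries. ATG4B, the protease that matures these proteins, rose with H2O2 (0.49 ± 0.09), and ATG3, which passes them on to lipid, fell (-0.59 ± 0.10), among neighbours with a median of -0.55. Of 20 other selective autophagy receptors 5 rose (25%) and 6 fell (30.0%) with H2O2, and 11 were higher (55.0%) and 1 lower (5.0%) in the knockdown libraries. The mitophagy receptor BNIP3 stood at -1.40 ± 0.07 and 1.08 ± 0.07 beside SQSTM1 at -0.45 ± 0.14 and 0.76 ± 0.14. The 1 lower gene was CCPG1, a receptor for the endoplasmic reticulum, at 0.85 ± 0.13 with H2O2 and -0.65 ± 0.13 in the knockdown comparison. Another gene covers 39.8% of its exon bases.

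Of 25 genes of delivery to lysosomes, 7 rose (28%) and 8 fell (32.0%) with H2O2, and 9 were higher (36.0%) and 2 lower (8.0%) in the knockdown libraries. LYST, which regulates the size of lysosome-related organelles, had the largest rise with H2O2 (1.33 ± 0.08) and was not called in the knockdown comparison (0.02 ± 0.08). SORT1, a sorting receptor of the Golgi, rose with H2O2 (0.54 ± 0.05) and was lower in the knockdown libraries (-0.28 ± 0.05). RAB9A, of transport between endosomes and the Golgi (-1.11 ± 0.06 and 0.99 ± 0.06), was lowest in ShNC + H2O2. RAB7A, of late endosomes (-0.95 ± 0.15 and 0.99 ± 0.15), was lowest there too, with a median of -0.52 and 0.54 among its chromosomal neighbours. Of 8 genes of autophagosome fusion 2 rose (25%) and 0 fell with H2O2, and 1 was higher (12.5%) and 2 lower (25%) in the knockdown libraries, among them the SNARE protein YKT6 (0.78 ± 0.10 and -0.68 ± 0.10). Of the 4 sensors of lysosomal damage 1 rose (25%) and 3 fell (75.0%) with H2O2, and all 4 were higher in the knockdown libraries than in ShNC + H2O2. LGALS3, a galectin that gathers on torn membranes, rose with H2O2 (0.52 ± 0.07) and was higher again in the knockdown libraries (0.26 ± 0.07). LGALS8, LGALS9 and TRIM16 fell with H2O2 and were higher in the knockdown libraries (0.61 ± 0.12, 1.41 ± 0.32 and 0.38 ± 0.10). LGALS9 was a gene of low level. Other genes cover 30.6% of the exon bases of LGALS8 and 28.7% of those of TRIM16. LGALS3 and LGALS9 were named after their values were seen.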

How the data were processed

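Bulk RNA-seq of HK-2 cells gave 12 libraries, 4 in each of 3 groups. The authors deposited raw read counts per Ensembl gene, 1 table a library, and used HISAT2, featureCounts (Subread) and DESeq2 with GRCh38 (hg38), per the submitters' processing notes; the sources used here give no version, annotation or strand setting. The counts were tested here as deposited, with symbols and positions from the reference annotation matched by identifier for 40640 and 39306 of 40649 genes, 2049 of which had no count.

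The filterByExpr function left 19268 genes. Libraries were scaled by TMM, and 1 fit over all 12 libraries (edgeR 4.0.16, limma 3.58.1, R 4.3.3, quasi-likelihood, common dispersion 0.0163, 9 residual degrees of freedom) gave 3 contrasts with p-values adjusted by Benjamini-Hochberg over all tested genes. The scripts were tested on simulated data. CPM used TMM-scaled totals. Exact permutation tests used log2 (CPM + 0.5) and all 70 assignments, and their p-values were not adjusted. Libraries of a group differed by more than sampling noise, so none was merged with another as a duplicate, which does not show that they are independent. Depth was 30789997 to 46582873 counts.

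Members and lists were chosen with earlier results of these data known. GLB1, LAMP1, TFEB, TFE3, SQSTM1 and GPNMB were named in full, with the 5 largest called rises and falls among the 39 genes in the first and second comparison and up to 2 of each per further list at a mean of at least 5 CPM. The other genes were named to account for all 39, and LGALS3 and LGALS9 after their values were seen. LGALS3 also met the naming rule, as the largest rise of its list with H2O2. Exon overlap above 20% with another gene was taken as uncertain. Alternatives were library sizes alone, DESeq2 1.42.0 and its size factors, 2 other filters, a replicate block, 2-group fits, libraries left out, mitochondrial genes left out, the shift of neighbouring genes removed and a 1.5-fold minimum; those of the other pathway genes were added after seeing the data.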

Additional observations from a re-analysis of the deposited data

Results flagged for a closer look

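In each group of 4 libraries, the gap of the highest or lowest value to its nearest neighbour was set against the whole range of the group for the 39 genes, which gave 117 tests. A library stood apart in 20 of them, where chance gives about 1 in 20 groups for a single test. The tests share the same 12 libraries and are not independent, so that rate is no benchmark for the total. ShNC replicate 4 accounted for 8 and Yap1 knockdown + H2O2 replicate 3 for 7, which had the highest shares of mitochondrially encoded counts; whether that share bears on these values was not tested.

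In Yap1 knockdown + H2O2 replicate 3, CTSA was high at 392 CPM against 276 to 286 CPM in the other 3 libraries, CTSZ at 744 CPM, IDUA at 15.6 CPM, ATP6AP1 at 186 CPM and TFE3 at 142 CPM, while PSAP was low at 2566 CPM and SQSTM1 at 310.1 CPM. In ShNC replicate 4, CTSA was high at 367 CPM, CTSZ at 1069 CPM, ASAH1 at 217 CPM and GPNMB at 56.9 CPM, and PSAP was low at 2188 CPM, ATP6V1H at 53.7 CPM, TFE3 at 115 CPM and SQSTM1 at 199 CPM, the last against 334 to 347 CPM in the other 3 ShNC libraries. CTSA and CTSZ were thus high, and PSAP and SQSTM1 low, in both libraries, whereas TFE3 was high in one and low in the other. In other libraries, NEU1 was low in Yap1 knockdown + H2O2 replicate 1 at 210.5 CPM and TFEB in replicate 4 at 2.74 CPM. In ShNC + H2O2, CTSA was high in replicate 2 at 325 CPM, TFE3 in replicate 3 at 108 CPM, and PSAP was low in replicate 4 at 2378 CPM.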

How the results depend on the processing

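Of 2571 recomputed log2 fold changes of single genes among the 39, 2435 kept their side of the threshold, 67 lost and 65 gained the call, and 4 turned round, all when the shift of neighbouring genes was removed: IDUA at 0.45 and ATP6V1A at 0.14 with H2O2, and MAN2B1 at 0.029 and GABARAPL1 at 0.22 in the knockdown comparison. Of the 2435, 48 changed sign while called under neither setting, among them GLB1 with H2O2 under library sizes alone at 0.0149. The 1.5-fold minimum left 12 of the 39 genes called in ShNC + H2O2 against ShNC, 8 in Yap1 knockdown + H2O2 against ShNC + H2O2 and 5 in Yap1 knockdown + H2O2 against ShNC. That was 30.8%, 20.5% and 12.8%. Of all tested genes 4838, 4093 and 2582 were then called (25.1%, 21.2% and 13.4%). These counts are lower since the rule is stricter by construction.

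GLB1 in Yap1 knockdown + H2O2 against ShNC + H2O2 stood at 0.13 (edgeR adjusted p = 0.0614) with library sizes alone and 0.20 (adjusted p = 0.0503) with no filter, and against ShNC at 0.15 (adjusted p = 0.0490) with library sizes alone. With that scaling the median of all genes moved to 0.087, -0.065 and 0.021 in the 3 comparisons. Of the other pathway genes 61 then rose (30.3%) and 46 fell (22.9%) with H2O2, against 27.9% and 18.3% of all tested genes. Without the libraries of high mitochondrial share 26 of the 39 genes (66.7%) were called in Yap1 knockdown + H2O2 against ShNC, against 46.8% of all tested genes. Of them 14 were higher and 12 lower (35.9% and 30.8%, against 24.0% and 22.8%). Without ShNC replicate 4 it was 9 higher and 6 lower (23.1% and 15.4%, against 19.2% and 18.0%). The cause was not tested.

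Leaving out 1 library at a time gave 21 to 26, 23 to 29 and 10 to 18 called genes of the 39 in the 3 comparisons. That was 53.8% to 66.7%, 59.0% to 74.4% and 25.6% to 46.2%. Of all tested genes 8067 to 10038, 7196 to 9684 and 5346 to 7298 were called in the same fits. That was 41.2% to 50.9%, 36.6% to 49.4% and 27.1% to 37.2%. Same-numbered libraries of different groups correlated between -0.22 and 0.10 in their deviations. The lowest values, -0.21 and -0.22, belonged to pairs that held a library of high mitochondrial share. Other pairs with such a library stood at 0.00092 (replicate 4 of ShNC + H2O2 and ShNC) and -0.00903 (replicate 3 of Yap1 knockdown + H2O2 and ShNC + H2O2). These values cannot settle whether equal numbers mark a shared culture or day, which the labels do not state. With the replicate block 23, 25 and 11 of the 39 genes were called (59.0%, 64.1% and 28.2%). Of all tested genes 8536, 7798 and 5731 were then called (44.3%, 40.5% and 29.7%). Among the called genes were GLB1 in the knockdown comparison at 0.19 (edgeR adjusted p = 0.0256) and TFEB against ShNC at 0.62 (adjusted p = 0.0443). Among the 39 genes the level of ATP6V0C neared the floor in some libraries. Of its exon bases 72.1% lie in another gene, and whether depth or this overlap limits its counts was not tested.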
